A study of Mus musculus with 768 samples.

Results

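Transforming growth factor beta (TGF-β) is a secreted cytokine that restrains NK cells and is made as a latent protein that has to be released before it can bind. The released ligand binds the type II receptor, which recruits and phosphorylates the type I receptor, and the type I receptor phosphorylates the receptor-regulated SMAD proteins SMAD2 and SMAD3. These join SMAD4, enter the nucleus and change transcription, and the pathway is held back by the inhibitory SMAD7 and by the nuclear co-repressors SKI and SKIL (SnoN). In tissues and tumors TGF-β is known to move NK cells towards a resident phenotype, in which the collagen-binding integrin CD49a (gene Itga1) and the chemokine receptor CXCR6 go up and the transcription factor EOMES goes down.

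The genes described here are the ligand Tgfb1, the receptors Tgfbr1, Tgfbr2 and Tgfbr3, the transducers Smad2, Smad3 and Smad4, and the inhibitors Smad7, Ski and Skil, which are 10 of the 24490 gene entries in the files. They were chosen as a family by symbol. NK cells were sorted from MTAP1A tumors grown in C57BL/6 mice (WT) or in C57BL/6 mice lacking PD-1 (PD-1-/-), by a gate on viable cells that included NK1.1+ and CD3-. MTAP1A is a fibrosarcoma line with low MHC class I, derived from mouse skin that lacked Tap1. Each genotype was 1 plate, filled from the pooled tumors of 3 mice. The series lists SMART-SEQ2 libraries, which cover whole transcripts of single cells, for all 768 wells. The labels state 382 sorted cells in total, so whether every well held a cell is not known. The values are RPKM, that is, reads scaled for the length of the transcript and for the mapped reads of the well.

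With 1 pool and 1 plate per genotype, genotype and plate cannot be told apart, cells are not replicates, and no difference between WT and PD-1-/- has a test. Percentages carry exact binomial (Clopper-Pearson) 95% intervals, which cover counting error only. After wells with under 1000 or over 3500 genes were left out, 726 cells remained, of which 360 were WT. Whole reads could be recovered from the steps of the RPKM values, and the kept cells had a median of 292196 recovered reads in WT and 307821 in PD-1-/- (range 1228 to 517860), with medians of 2264.5 and 2262.5 genes per cell. The NK cell genes Ncr1, Klrb1c, Klrk1, Klre1, Tyrobp, Fcer1g and Gzma were found in 89.3% to 100% of cells of either plate and Eomes in 61.9% and 55.2%, whereas no listed myeloid, neutrophil, B cell or fibrosarcoma gene was found in more than 6.39% of cells. At least 1 of the CD3 chain genes Cd3d, Cd3e and Cd3g was found in 65 WT cells (18.1%) and 83 PD-1-/- cells (22.7%), although the gate was CD3-. The other listed T cell genes were rarer, led by Bcl11b with 4.72% on the WT plate and 6.01% on the PD-1-/- plate. In the same order, shares were 2.22% and 1.91% for Cd6, 1.94% and 1.91% for Cd8a, and 1.39% and 2.46% for Cd8b1. Cd5 had 1.11% and 1.91%, Cd4 0.833% and 1.09%, and Themis 0% and 0.273%. Whether the cells with CD3 transcripts were T cells was not tested. In WT plate rows A and B, CD3 transcripts were found in 20 of 38 cells, against 13.98% of the WT cells in rows C to P. Pdcd1, the deleted gene, had reads in 12.8% of PD-1-/- but 2.50% of WT cells, and because the deletion described for these mice covers part of the gene and a value per gene does not show which exons were read, it could not check the labels.

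The type II receptor was the member found most often. Tgfbr2 was found in 47.9% (44.2 to 51.6) of the 726 cells, and Tgfb1 followed with 38.4% (34.9 to 42.1). Smad3 was found in 24.7%, Skil in 23.6%, Smad2 in 19.7%, Ski in 17.9%, Smad7 in 13.6%, Tgfbr1 in 12.5% and Smad4 in 8.95% of cells. From Smad3 down to Smad4, the intervals of each gene and the next in this order overlapped. Tgfbr3 was found in 9 cells, 1.24% (0.568 to 2.34), below the limit of 5% of kept cells that 8576 genes and the other 9 members passed. The plot of shares by genotype shows the order was similar on both plates, with the 4 blocks of plate rows spread around each share.

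**Figure D1:**
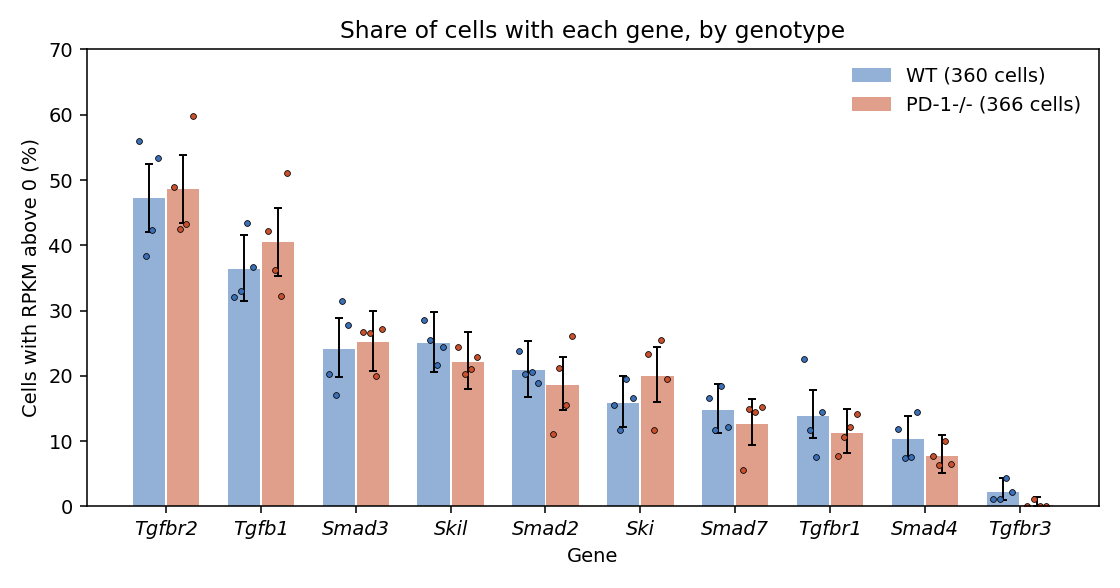
Bars show the percentage of kept cells with RPKM above 0 for each gene, in WT and PD-1-/-; lines are exact 95% binomial intervals and points are the shares in 4 blocks of 4 plate rows. Tgfbr2 stands at 47.2% and 48.6% and Tgfbr3 at 2.22% and 0.273%.

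Starting with the ligand, Tgfb1 encodes TGF-β1, the main isoform made by lymphocytes. Its level in the cells where it was found ranged from 1.05 to 260 RPKM with a median of 6.15 in WT, and from 0.938 to 253.3 RPKM with a median of 5.70 in PD-1-/-. These are low values that rest on a median of 4 reads per cell on both plates. At least 10 reads were present in 25.95% of the WT and 32.4% of the PD-1-/- cells with Tgfb1, whereas 66.04% to 87.1% of the cells with any other member except Tgfbr3 had at least 10 reads. The recovered reads of Smad2 are approximate, because its values did not follow a single step size. When 10 RPKM was required, the share of cells with Tgfb1 was 13.3% in WT and 15.03% in PD-1-/-, compared with 41.7% and 41.5% for Tgfbr2. Most of the cells counted for Tgfb1 therefore had few reads of it. In a cell of low depth 1 read can pass 10 RPKM, as in WT well B4, where Tgfb1 had 54.5 RPKM from 1 read.

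Tgfbr2, the type II receptor that binds the ligand, was also the member with the highest level per length. In cells where it was found, it ranged from 0.531 to 446 RPKM with a median of 104.6 in WT, and from 0.404 to 868 RPKM with a median of 98.2 in PD-1-/-. Its mean over all cells was 57.9 RPKM in WT and 57.6 RPKM in PD-1-/-, a difference of under 1 RPKM between the plates. Tgfbr1, the type I receptor kinase, reached 13.9% in WT and 11.2% in PD-1-/-, with medians of 45.3 and 21.4 RPKM where present. Betaglycan, encoded by Tgfbr3, presents ligand to the type II receptor, and it was found in 8 WT cells at 3.48 to 71.7 RPKM, 3 of them with 1 read, and in 1 PD-1-/- cell at 8.06 RPKM, also with 1 read.

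Transcripts of both signaling receptors were rarely seen in the same cell. Tgfbr1 and Tgfbr2 were found together in 46 cells, 6.34% (4.68 to 8.36), and Tgfbr2 without Tgfbr1 in 41.6%. Neither was found in 45.9%. The count of cells with both was close to the product of their separate shares, 24 against 23.6 in WT and 22 against 19.9 in PD-1-/-. At these depths a transcript of few copies can be missed in a cell that has it, so cells without a read of a receptor were not shown to lack it.

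Among the transducers, Smad3 had the highest mean over all cells (21.1 RPKM in WT and 24.3 RPKM in PD-1-/-), with a median of 71.9 RPKM in the WT cells where it was found (0.509 to 369.3) and 74.05 RPKM in PD-1-/- (0.393 to 345.8). Smad2, the other receptor-regulated SMAD, had medians of 47.4 RPKM (0.353 to 201.25) and 58.6 RPKM (0.257 to 211.7). Smad4, the partner that both share, was found in 37 WT cells (10.3%) with a median of 38.2 RPKM and in 28 PD-1-/- cells (7.65%) with a median of 97.2 RPKM. Smad2 or Smad3 was found in 37.3% of cells (33.8 to 40.96), close to the share with Tgfb1 alone. Both were found in 24 WT cells, where their separate shares give 18.1, and in 27 PD-1-/- cells, where they give 17.1. Smad2 and Smad4 were likewise found together in 11 WT cells against 7.71 and in 9 PD-1-/- cells against 5.20. Smad2 and Ski were found together in 14 WT cells against 11.9 and in 10 PD-1-/- cells against 13.6. Smad2 was found in 14.5% of the third of cells with the fewest genes and 27.3% of the third with the most. Whether cells with more genes account for the joint counts was not tested, and no other gene pairs were counted beside those of the 10 members. A cell with both receptors, Smad2 or Smad3, and Smad4 was seen 3 times in WT and in 0 PD-1-/- cells, which allows a share of up to 1.003% by the exact interval.

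At least 1 of the inhibitors Smad7, Ski and Skil was found in 46.6% of cells (42.9 to 50.3). Skil, whose transcription TGF-β itself induces in many cells, was the most frequent, at 25% in WT and 22.1% in PD-1-/-, with medians of 25.5 RPKM (0.400 to 157.3) and 17.9 RPKM (0.360 to 200.5) where present. Ski, its relative, was at 15.8% in WT and 19.9% in PD-1-/-, with medians of 59.8 RPKM (0.599 to 332.2) and 34.9 RPKM (0.364 to 187.1). Smad7, the feedback inhibitor of the type I receptor, was found in 14.7% and 12.6%, with medians of 14.8 RPKM (0.497 to 197.4) and 32.7 RPKM (0.531 to 152.4). In the plot of levels, the points of the 9 more frequent members overlap widely between the genotypes, and Tgfb1 has the lowest median of these 9 on both plates.

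**Figure D2:**
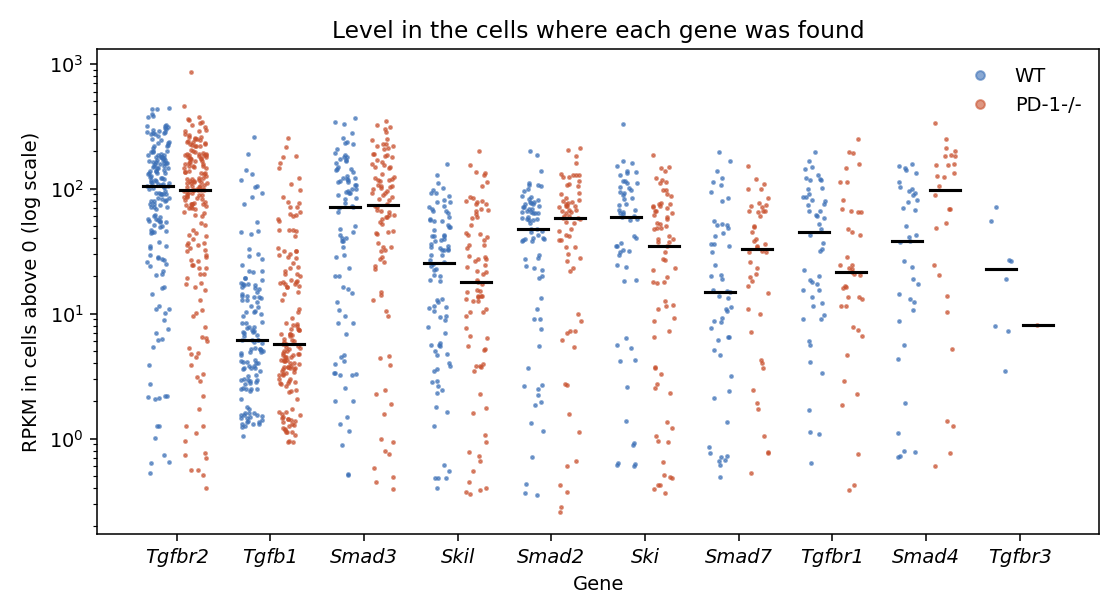
Each point is 1 kept cell with RPKM above 0 for the gene, on a log axis, in WT and PD-1-/-; black lines are medians. Medians run from 5.70 RPKM for Tgfb1 in PD-1-/- to 104.6 RPKM for Tgfbr2 in WT.

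Cells had a median of 2 of the 10 genes, at most 7, and 66 cells (9.09%) had none. The number of members in a cell moved with the number of genes found in it (Pearson's r = 0.31 over the WT cells and 0.33 over the PD-1-/- cells, given as a description, since both counts share the depth of the cell). From the third of cells with the fewest genes to the third with the most, Tgfb1 went from 29.8% to 51.2% of cells and Tgfbr2 from 35.5% to 60.3%. For the 8576 genes above the limit the mean share went from 19.4% to 31.98%. Smad3, Smad7 and Ski changed less in value, at 22.3% and 25.6% for Smad3, 10.7% and 13.6% for Smad7 and 18.6% and 20.2% for Ski in the cells with the fewest and the most genes, as the plot by genes per cell shows. Among the genes compared, the gene picked as most alike to each member on both plates did not follow it closely. The picked genes reached at most r = 0.21 in WT and 0.19 in PD-1-/- (Epg5 with Smad4, and Ldha with Tgfbr2). These values were under the 0.3 required on both plates for a gene to be described as alike. A gene with a higher r in WT alone or in PD-1-/- alone could have been passed over.

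**Figure D3:**
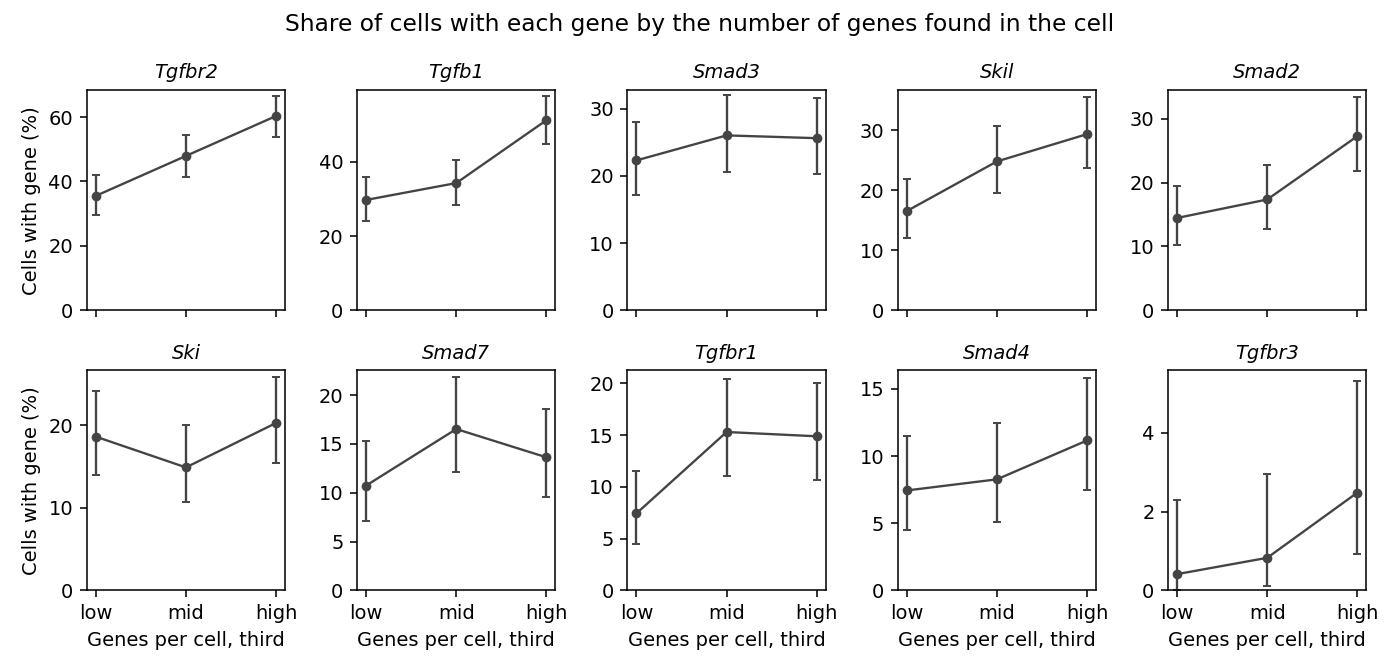
For each gene, the percentage of cells with RPKM above 0 (both plates together, own scale per panel) in the cells with the fewest, middle and most genes found, with equal numbers of cells; lines are exact 95% binomial intervals. Tgfbr2 goes from 35.5% to 60.3%, while Smad3 stays between 22.3% and 26.03%.

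The first comparison was between the genotypes, which asks whether the family was present at other levels in NK cells without PD-1. Share differences (PD-1-/- minus WT) ran from -2.87 percentage points for Skil to 4.11 points for Ski among the 9 more frequent members, and each interval included 0. For Tgfbr3 the difference was -1.95 points (-4.08 to -0.183), from 8 cells against 1, of which 3 and 1 held a single read. In every member the shares in the 4 row blocks of one plate overlapped with those of the other. The same held for Cxcr6 (7.78% in WT and 21.04% in PD-1-/-) and Itga1 (13.3% and 24.6%). This overlap was not counted over all genes, so it says little about the members.

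Mean RPKM was compared as log2 of (mean + 1), PD-1-/- over WT, and 0.5 was taken as the size to name. None of the 10 members was higher by 0.5, where 7.75% of the 8576 genes were. Tgfbr3 was lower by 0.5 (0.606 against 0.0220 RPKM, log2 ratio -0.65), where 7.68% of genes were, and it was not among those 8576. The size of its ratio rests on the pseudocount, at -2.53 with 0.1 and -0.08 with 10. The next in size were Tgfbr1 (7.80 and 5.42 RPKM, log2 ratio -0.46), Smad4 (5.54 and 7.95 RPKM, 0.45) and Tgfb1 (6.70 and 9.39 RPKM, 0.43). Tgfbr2, Smad7, Smad2, Skil, Smad3 and Ski lay between -0.21 and 0.19 in all kept cells. Without the cells that had CD3 transcripts, however, Ski was at -0.68 and Tgfb1 at 0.56, both past 0.5. In that setting 8.91% of tested genes were lower and 10.1% higher by 0.5. Without rows A and B as well, Ski was at -0.69 and Tgfb1 at 0.43. The median of the absolute log2 ratio was 0.20 over the members and 0.21 over the 8576 genes. The ratio of Tgfbr1 depended on the part of the plate, at -1.49 in the upper rows (A to H) and 0.51 in the lower rows (I to P). In WT rows A to D, Tgfbr1 was found in 22.6% of cells, against 7.61% to 14.4% in the other WT blocks, and Cxcr6, Itga1 and Cd3d also had their highest WT shares in those rows (21.4%, 26.2% and 26.2%). Some high Tgfbr1 values there rest on few reads in cells of low depth. In WT wells B3, B6 and A22 it had 121.4, 116.7 and 74.7 RPKM from 1 read each, and in B1 165.8 RPKM from 4 reads. Without rows A and B the ratio of Tgfbr1 was -0.16, and without the cells that had CD3 transcripts as well it was 0.012.

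The second comparison set cells with transcripts of Itga1, Cxcr6 or Eomes against cells without them, within each plate, so that plate and genotype do not enter the difference. Itga1 was found in 48 WT and 90 PD-1-/- cells, Cxcr6 in 28 and 77, and Eomes in most cells (61.9% in WT, 55.2% in PD-1-/-). Position on the plate can still enter the difference. Rows A to D held 18 of the 28 WT cells with Cxcr6 and 22 of the 48 with Itga1. Tgfbr2 was found in 55.95% of the WT cells in those rows, against 38.3% to 53.3% in the other WT blocks. A member was named when it differed by at least 10 percentage points in the same direction on both plates. A gene found in under 10% of the cells without a marker, such as Tgfbr3, cannot be 10 points less frequent with it.

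Tgfbr2 was more frequent where Cxcr6 was found. Of the 28 WT cells positive for Cxcr6, 22 had Tgfbr2, which is 78.6% (59.05 to 91.7) against 44.6% (39.2 to 50.1) of the other WT cells, a difference of 33.99 points (13.7 to 48.2). Of the 77 positive PD-1-/- cells, 46 had Tgfbr2, 59.7% (47.9 to 70.8) against 45.7% (39.8 to 51.6), a difference of 14.1 points (0.858 to 26.5). Mean levels were 88.9 against 55.3 RPKM in WT and 69.1 against 54.6 RPKM in PD-1-/-. Of the 10 members, 1 was at least 10 points more frequent with Cxcr6 on both plates, against 1.61% of the 8575 genes tested, and 0 were less frequent, against 0.805%. Among genes in at least 20% of cells, as Tgfbr2 was, 2.20% were more frequent and 1.55% less frequent with Cxcr6. Cells with and without Cxcr6 had similar numbers of genes (medians of 2356.5 and 2262.5 in WT, 2308 and 2252 in PD-1-/-), but CD3 transcripts were found in 64.3% against 14.2% in WT and in 42.9% against 17.3% in PD-1-/-. Without the cells that had CD3 transcripts, Tgfbr2 was found in 7 of 10 WT cells with Cxcr6 against 46.7% without, and in 27 of 44 PD-1-/- cells against 44.4%, differences of 23.3 points (-12.4 to 47.4) and 17.01 points (-0.153 to 32.7). The direction was the same in cells with no CD3 read, with intervals that included 0 in these smaller groups. In rows A to H the PD-1-/- difference was 7.07 points, below the size for naming.

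Smad2 was found in 35.7% of WT cells with Cxcr6 against 19.6% without, a difference of 16.1 points (-1.57 to 36.8), but the difference was 2.79 points (-6.96 to 14.4) in PD-1-/-. Smad3 went in opposite directions, 4.78 points in WT and -8.81 points in PD-1-/-, with both intervals including 0. Smad4 and Smad7 were less frequent with Cxcr6 on both plates by 1.46 to 4.35 points, within counting error.

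With Itga1, Tgfbr2 and Ski were the members named. Tgfbr2 was found in 30 of 48 WT cells with Itga1, 62.5% (47.4 to 76.05), against 44.9% without, and in 52 of 90 PD-1-/- cells, 57.8% (46.9 to 68.1), against 45.7%. These are differences of 17.6 points (1.44 to 32.3) and 12.1 points (-0.329 to 24.1). Ski was found in 12 of 48 WT cells with Itga1, 25% (13.6 to 39.6), against 14.4% without, and in 28 of 90 PD-1-/- cells, 31.1% (21.8 to 41.7), against 16.3%. Its differences were 10.6 points (-1.61 to 25.6) and 14.8 points (4.26 to 26.2). The 2 named members stand against 2.29% of the 8575 genes for more frequent with Itga1 and 0 members against 0.175% for less frequent. Among genes in at least 20% of cells, as Tgfbr2 was but Ski was not, 3.83% were more frequent with Itga1. Tgfb1 and Tgfbr1 were also more frequent with Itga1 in WT, by 18.1 points (2.21 to 33.6) and 12.8 points (0.723 to 27.8), and by 6.79 points (-5.35 to 19.1) and 7.25 points (-0.878 to 17.1) in PD-1-/-.

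Cells with Itga1 had more genes than cells without (medians of 2595.5 and 2244 in WT, 2404 and 2197 in PD-1-/-) and had CD3 transcripts more often (35.4% against 15.4% in WT, 33.3% against 19.2% in PD-1-/-). The median difference over the 8575 genes was 3.37 points in WT and 1.33 points in PD-1-/-, next to 6.49 and 3.56 points over the members. Without cells that had CD3 transcripts, the difference of Tgfbr2 was 19.1 points in WT (20 of 31 cells with Itga1 against 45.5% of those without) and -0.42 points in PD-1-/- (28 of 60 against 47.1%), so no difference of the named size was left in PD-1-/-. For Ski the differences without those cells were 17.9 points in WT (10 of 31 against 14.4%) and 17.3 points in PD-1-/- (19 of 60 against 14.3%). In cells with 2000 to 3000 genes neither was named, with differences of 13.6 and 9.32 points for Tgfbr2 and 13.9 and 8.84 points for Ski in WT and PD-1-/-. Requiring 10 RPKM instead of any read, for Itga1 as well as for Ski, left Ski at 7.46 points in WT and 3.74 points in PD-1-/-. The cells counted as having Itga1 were then not the same groups as above.

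**Figure D4:**
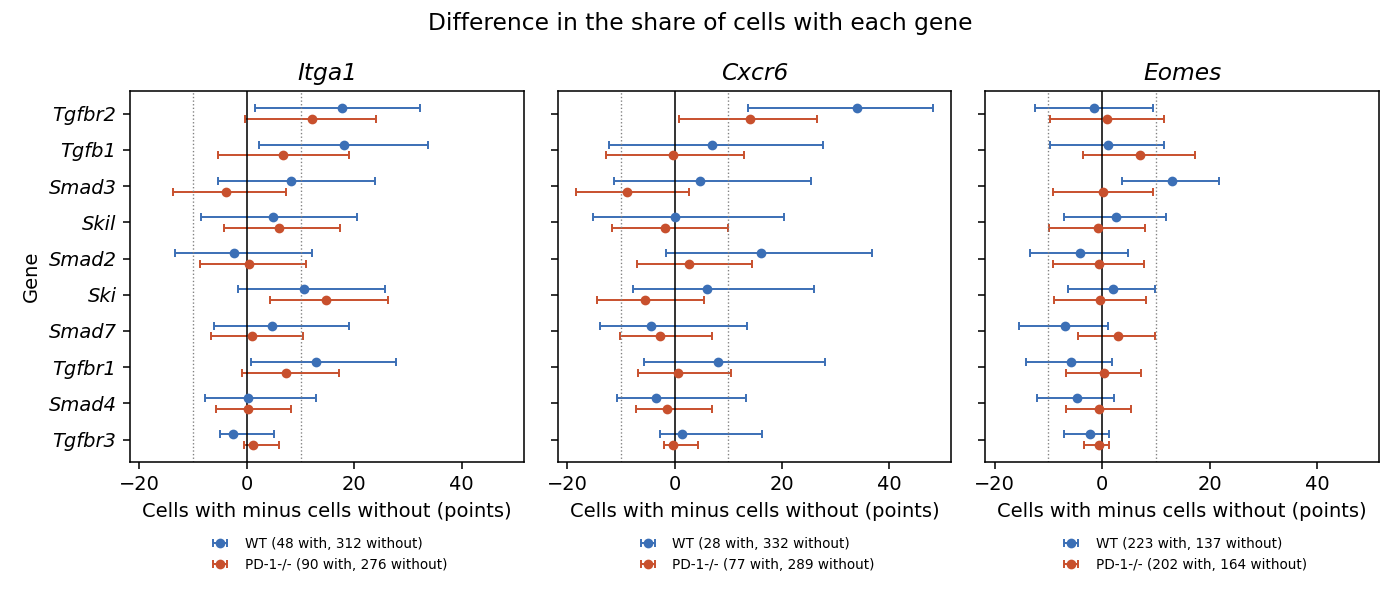
For each gene, the percentage of cells with it among cells that had Itga1, Cxcr6 or Eomes transcripts minus that among cells that did not, in percentage points, for WT and PD-1-/-; lines are 95% intervals built from both exact ones and dotted lines mark 10 points. Tgfbr2 lies at 33.99 and 14.1 points for Cxcr6, and Ski at 10.6 and 14.8 points for Itga1.

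Cells were also divided by both markers together, after the values of each marker were seen. Tgfbr2 was found in 15 of 17 WT cells with Itga1 and Cxcr6, 88.2% (63.6 to 98.5), and in 27 of 40 such PD-1-/- cells, 67.5% (50.9 to 81.4). In cells with neither marker its shares were 44.2% in WT and 44.8% in PD-1-/-, and with Itga1 alone 48.4% and 50%. Ski was instead most frequent in cells with Itga1 alone, 8 of 31 in WT, 25.8% (11.9 to 44.6), and 21 of 50 in PD-1-/-, 42% (28.2 to 56.8), compared with 14.3% and 16.7% in cells with neither. In cells with both markers Ski was found in 4 of 17 and 7 of 40. With Cxcr6 alone, Tgfbr2 was found in 7 of 11 cells in WT and 19 of 37 in PD-1-/-, and Ski in 2 of 11 and 5 of 37. Of the cells with both markers, CD3 transcripts were present in 10 of 17 in WT and 18 of 40 in PD-1-/-. Without cells that had CD3 transcripts, the count of Tgfbr2 with both markers was 6 of 7 in WT against 13 of 22 in PD-1-/-, and with Cxcr6 alone 1 of 3 and 14 of 22. Ski was then found in 3 of 7 and 4 of 22 cells with both markers, and in 7 of 24 and 15 of 38 with Itga1 alone. The group with the highest share therefore changed for Ski in WT and for Tgfbr2 in PD-1-/- when these cells were left out.

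**Figure D5:**
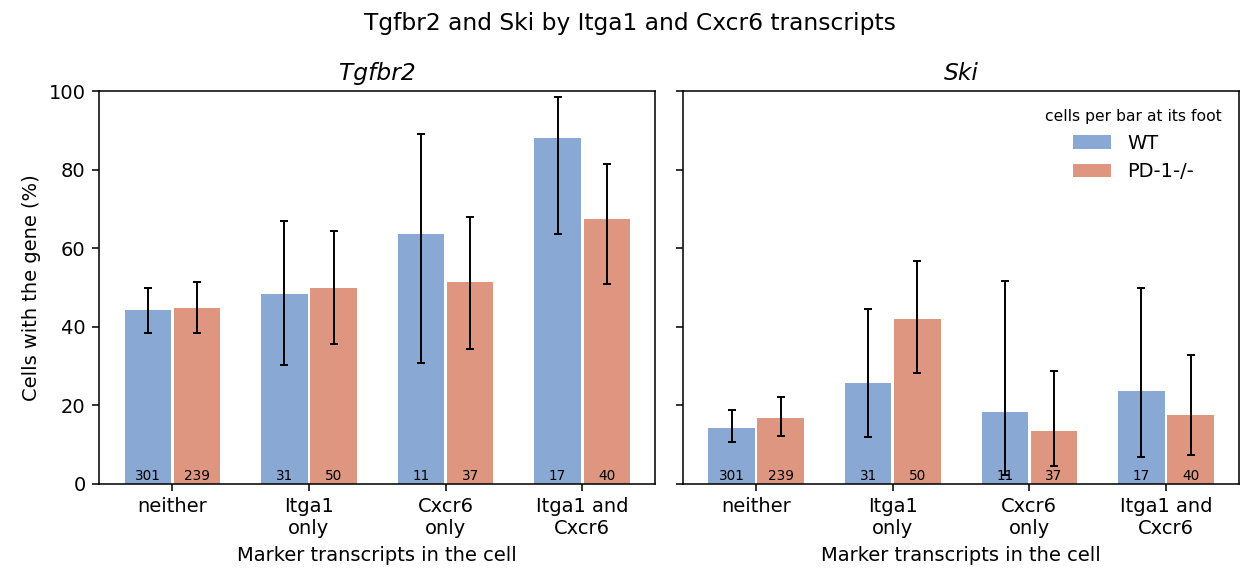
Percentage of cells with Tgfbr2 (left) and Ski (right) among cells with neither marker, one of them or both, in WT and PD-1-/-; lines are exact 95% binomial intervals and the number of cells stands at the foot of each bar. Tgfbr2 reaches 88.2% and 67.5% in cells with both markers, and Ski 25.8% and 42% in cells with Itga1 alone.

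With Eomes, no member was named in either direction, against 0.536% of the 8575 genes more frequent and 0.0933% less frequent. The difference for Tgfbr2 was -1.54 points (-12.5 to 9.42) in WT and 0.839 points (-9.79 to 11.4) in PD-1-/-. Smad3 was found in 29.1% of WT cells with Eomes and 16.1% without, a difference of 13.1 points (3.77 to 21.7), whereas in PD-1-/- the shares were 25.2% and 25%. Whether the plates differ in this was not tested. CD3 transcripts were found less often with Eomes than without, in 15.2% against 22.6% in WT and 17.8% against 28.7% in PD-1-/-.

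The members were also compared by CD3 status. The shares in the 65 WT or 83 PD-1-/- cells with CD3 transcripts were set against those in the rest. In WT the differences ran from -11.7 points (Skil) to 7.46 points (Tgfbr1). In PD-1-/- they ran from -4.46 points (Smad3) to 8.48 points (Ski). The same comparison was not made over all genes, so no background stands beside these values. Skil was at 15.4% of WT cells with CD3 transcripts, 11.7 points below the rest, but at 20.5% of PD-1-/- cells, 2.13 points below.

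Other genes of the TGF-β pathway were taken from a list of 55 genes, of which 26 were found in at least 5% of kept cells. Between genotypes, 1 of the 26 was higher by 0.5 in log2 ratio and 2 were lower, against 7.75% and 7.68% of all 8576 genes, and the median ratio was 0.07. Of genes that release or process the ligand, Itgav, the integrin αV chain, was found in 21.4% and Furin, the protease that cleaves the precursor, in 15.4% of cells. Tgfb2 and Tgfb3, the other ligands, were found in 0.413% and 1.52%. Receptors for activins and BMPs were rare, with Acvr2a in 6.75% and Bmpr2 in 2.75% of cells. The BMP-responsive Smad5 and Smad1 were found in 10.5% and 5.92%, and Smad1 had the highest log2 ratio of the 26 (3.68 RPKM in WT and 7.58 RPKM in PD-1-/-, 0.87), from 19 and 24 cells. Next were Traf6 (0.37), an adaptor of the TAK1 kinase branch found in 19.3%, and Acvr2a (0.35).

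Of the 15 regulators on the list, 12 were found in at least 5% of cells, led by Fkbp1a, whose product FKBP12 holds the type I receptor inactive, in 59.1% of cells, and the co-repressor Ncor1 in 57.99%. Within the TAK1 branch Tab2 was found in 39.7%, and Map3k7, which encodes TAK1, had the lowest log2 ratio of the 26, -0.75 (5.96 RPKM in WT and 3.15 RPKM in PD-1-/-). The cell cycle inhibitor Cdkn1a (-0.52) and the repressor Tgif1 (-0.42) followed. Among genes that TGF-β or BMP is known to regulate, Id2, which NK cells need for their development, was found in 97.4% and Junb in 78.2%. Ctgf, a classical TGF-β response of other cell types, was found in 0.413% of cells, and Itgae, the CD103 integrin chain, in 3.44%. None of the 26 pathway genes differed by 10 points in the same direction on both plates with Itga1, Cxcr6 or Eomes. Of the 8575 genes tested, 2.29%, 1.61% and 0.536% were more frequent with these markers, and 0.175%, 0.805% and 0.0933% less frequent. At such low shares, finding none among 26 genes says little about the pathway. Genes in few cells, such as Smad1 (5.92%), could hardly be 10 points less frequent.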

How the data were processed

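SMART-SEQ2 data of sorted tumor-infiltrating NK cells were analysed from 1 plate per genotype, 768 wells in all. The labels state 382 sorted cells. Per the labels, RPKM values for each gene in each well were deposited, computed by the authors from their mapped reads. The submitters' processing notes name TopHat and Cufflinks, and mm9 and mm10, without versions or roles, so no coordinates are given. No deposited counts were used. Cells with 1000 to 3500 genes above 0 were kept, counting the 14761 genes above 0 in at least 3 wells. A gene was called found at RPKM above 0. Genotypes were compared by log2 of (mean RPKM + 1), with no test because each genotype is 1 pool, and markers by differences in shares, with an interval from both exact ones. Relative depth was recovered from RPKM steps: 10267 genes gave whole reads, and of their 731869 values that came to under 60 reads, 98.1% lay within 0.0003 (relative) of a whole number. Doublets were not called. The scripts, run in Python 3.11.15 with numpy, scipy and pandas, were tested on simulated data. The genes, lists and tests were chosen with earlier results of these data known. Named genes were the 10 members, the 3 markers, the CD3 chains, the 2 most frequent pathway genes per role and the 3 highest and 3 lowest ratios among pathway genes found in 5% of cells. Tgfb2, Tgfb3, Ctgf and Itgae were named after their values were seen.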

Additional observations from a re-analysis of the deposited data

How the results depend on the processing

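The members' shares and log2 ratios, their differences by marker and the counts of members named were recomputed under other settings, 2 of them chosen after seeing the data (at least 10 recovered reads, and no CD3 cells with no plate rows A and B). Limits on RPKM or reads applied to the marker genes as well as to the members. Of 220 recomputed shares of the members, 38 left their 95% intervals, 33 of them with 10 RPKM or 10 reads required, in one set of plate rows (A to H or I to P) or in thinned cells. The number of members past the size between genotypes, 1 in the main setting, was 3 in cells with 2000 to 3000 genes, without CD3 cells and with a pseudocount of 0.1, 5 in rows A to H, 2 in rows I to P, in cells thinned to 100000 reads and without CD3 cells and rows A and B, and 0 with a pseudocount of 10, a fold of 1 or genes in at least 20% of cells. Of tested genes, 13.8% were higher and 14.5% lower in rows A to H, and 14.2% and 12.6% in rows I to P. With 2000 to 3000 genes they were 10.6% and 10.5%, and without CD3 cells 10.1% and 8.91%. With pseudocounts of 0.1 and 10 they were 9.28% and 9.29%, and 1.85% and 1.56%. In thinned cells they were 8.34% and 7.49%, and without CD3 cells and rows A and B 10.7% and 9.79%. With a fold of 1 they were 1.07% and 0.863%, and for genes in 20% of cells 2.78% and 2.50%. With Itga1 the number was 2, and 1 in cells with 2000 to 3000 genes (Tgfb1, and neither Tgfbr2 nor Ski), above 1 or 10 RPKM, without CD3 cells (with or without rows A and B), in thinned cells, with 10 reads or among genes in at least 20% of cells, and 4 with a limit of 5 points. With that limit 11.9% of tested genes were more frequent, and in cells with 2000 to 3000 genes 1.65%. In the other settings with 1 member named, 1.95% to 3.83% of tested genes were more frequent. In rows A to H the 2 were Tgfb1 and Tgfbr2, and in rows I to P Tgfbr1 and Ski, against 2.77% and 5.11% of tested genes. With Cxcr6 the number of members was 1, and 0 in rows A to H, against 2.95% of tested genes more frequent and 1.45% less. With Eomes the number was 0, and 1 in cells with 2000 to 3000 genes, where Smad3 was named, against 0.608% more frequent. Tgfbr2 with Itga1 in PD-1-/- reversed to -0.42 points without CD3 cells and to -0.64 points when rows A and B were also left out, and the cause was not tested. No paired analysis was possible because each genotype is 1 pool, so no replicates can be paired or left out. Thinning left out 30 WT and 14 PD-1-/- cells. Where a member was found in few reads, as Tgfb1 was, the share depends most on depth, at 25.2% and 30.7% in thinned cells against 36.4% and 40.4%.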

Other observations

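Wells outside the limits on genes per cell were in no comparison. In the 16 WT and 14 PD-1-/- wells with more than 3500 genes, Tgfbr2 was found in 13 and 12 wells, and a well had a mean of 4.19 and 3.14 of the 10 members. In the 8 WT and 4 PD-1-/- wells with fewer than 1000 genes, the means were 0.25 and 0.50, and Tgfbr2 was found in none of them. Smad4 and Smad7 were found together in 10 WT cells, where their separate shares give 5.45, and in 1 PD-1-/- cell, where they give 3.52. This pair was picked from 45 pairs for its values, and the difference between the plates was not tested.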
